A study of Mus musculus with 2 samples.

Results

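Of the 53781 CTCF summits on the 19 mouse autosomes that stood in at least 1 of the 2 deposited thresholded peak lists of embryonic limb, 11057 stood in only one of them. These peaks were chosen by position. A peak of the list named optimal was taken when no summit of the list named conservative lay within 100 bp, and the reverse. This gave 6082 optimal-only peaks, 12.5% of the 48806 autosomal peaks of the optimal list, and 4975 conservative-only peaks, 10.4% of the 47699 of the conservative list. The other 42724 peaks were shared, all of them at the identical summit base. No pair of summits lay 1 to 100 bp apart, and the closest summit of the other list lay 199 bp from an optimal-only peak and 199 bp from a conservative-only peak, so the limit of 100 bp fell in an empty range. Among the members at that closest distance were optimal-only peaks near Gtf3c3 (signal 19.5) and in Ikbke (7.23) and conservative-only peaks at Pnkd (16.8) and in Col13a1 (10.1). Neither list contained the other.

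CTCF was measured by chromatin immunoprecipitation and sequencing in limb tissue of mouse embryos aged 14.5 days, strain B6NCrl, male and female together. There was 1 group with 2 libraries, called replicate 1 and replicate 2. Limbs from several dissections were pooled and pulverised, no treatment or genetic change is labelled, and both libraries carry the same biosample label. The labels number them as biological replicates 1 and 2. As the biosample label is the same, the difference between replicates may still be technical only. With whole limbs, a peak held by few cells and one held weakly by many cells cannot be told apart. Signal below is the deposited signal value of a peak, on the scale of its own list. It has no read counts behind it in the lists, so depth is unknown.

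CTCF is a DNA-binding protein with a row of zinc fingers that recognises a long, directional motif. Together with the ring-shaped cohesin complex it marks the anchors of chromatin loops and the borders of topological domains, and it also binds at many gene promoters. The irreproducible discovery rate, or IDR, is a procedure that scores peaks by how alike their ranks are in a pair of lists. In the limb bud, domain borders set by CTCF flank the Hox clusters and other patterning genes.

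The sequences below show what lies under the strongest peaks held by only one list, with and without the CTCF motif, and under a peak at a limb patterning gene of each group. They are on GRCm38, the assembly that mm10 names, and capitals mark the 21 bases of the motif hit. The hit came from a matrix built from the strongest shared peaks, whose most frequent bases read GCCACCAGGGGGCGCTAGAGC. Among optimal-only peaks, the Mettl17 peak (chr14:51883752-51883882, forward strand) was intergenic, 1025 bp upstream of the first start site of that gene. The Dlgap5 peak (chr14:47396324-47396454, reverse strand) lay 428 bp upstream of a start site inside the gene. The Uvrag peak (chr7:99151566-99151788, reverse strand) was intergenic, 10536 bp upstream, and its hit was centred 60 bp from the summit. The Foxf2 peak (chr13:31689459-31689589, forward strand), 63708 bp downstream of the start site, was the strongest optimal-only peak with no hit within 100 bp. The Ptch1 peak (chr13:63563977-63564107, forward strand) lay 227 bp upstream of a start site inside the gene for the Hedgehog receptor.
Mettl17: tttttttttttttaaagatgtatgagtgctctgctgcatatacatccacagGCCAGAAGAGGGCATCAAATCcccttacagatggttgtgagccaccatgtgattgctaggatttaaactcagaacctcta
Dlgap5: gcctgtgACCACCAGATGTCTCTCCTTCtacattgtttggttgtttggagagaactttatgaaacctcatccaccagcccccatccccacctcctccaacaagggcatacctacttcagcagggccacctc
Uvrag: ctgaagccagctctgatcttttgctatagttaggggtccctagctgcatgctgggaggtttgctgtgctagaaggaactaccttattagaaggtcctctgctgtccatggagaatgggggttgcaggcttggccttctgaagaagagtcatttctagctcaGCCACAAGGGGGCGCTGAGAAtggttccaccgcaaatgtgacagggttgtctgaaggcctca
Foxf2: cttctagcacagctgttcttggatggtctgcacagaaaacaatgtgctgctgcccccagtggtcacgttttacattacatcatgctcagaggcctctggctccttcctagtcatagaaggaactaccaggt
Ptch1: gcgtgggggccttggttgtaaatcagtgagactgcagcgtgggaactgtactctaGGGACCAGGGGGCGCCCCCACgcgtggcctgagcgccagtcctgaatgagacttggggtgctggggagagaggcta

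Among conservative-only peaks, the Pik3cg peak (chr12:32292040-32292262, forward strand) was intergenic, 83492 bp upstream of the gene, with its hit centred 62 bp from the summit. The Bsn peak (chr9:108201359-108201489, reverse strand) was intergenic, 11040 bp upstream. The Fbp2 peak (chr13:62856524-62856654, reverse strand) lay 280 bp upstream of a start site of the gene. The B3gntl1 peak (chr11:121680794-121680924, forward strand), 7706 bp upstream, was the strongest conservative-only peak with no hit within 100 bp. The Gli1 peak (chr10:127340751-127340881, forward strand) lay 857 bp upstream of a start site of the gene, a transcription factor of Hedgehog signalling.
Pik3cg: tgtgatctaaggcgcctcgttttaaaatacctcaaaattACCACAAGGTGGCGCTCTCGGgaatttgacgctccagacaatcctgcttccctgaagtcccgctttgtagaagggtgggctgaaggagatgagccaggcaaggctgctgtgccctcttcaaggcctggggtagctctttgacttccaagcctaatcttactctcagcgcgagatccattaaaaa
Bsn: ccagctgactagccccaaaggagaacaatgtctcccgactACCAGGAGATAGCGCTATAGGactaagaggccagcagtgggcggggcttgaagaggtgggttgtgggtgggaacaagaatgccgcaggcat
Fbp2: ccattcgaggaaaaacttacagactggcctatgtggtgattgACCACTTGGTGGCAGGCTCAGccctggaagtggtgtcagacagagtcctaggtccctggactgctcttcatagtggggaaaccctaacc
B3gntl1: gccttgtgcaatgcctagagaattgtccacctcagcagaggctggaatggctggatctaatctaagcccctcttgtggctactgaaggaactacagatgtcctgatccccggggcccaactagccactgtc
Gli1: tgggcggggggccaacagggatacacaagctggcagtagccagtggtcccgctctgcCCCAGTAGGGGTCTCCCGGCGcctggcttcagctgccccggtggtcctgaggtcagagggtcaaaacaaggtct

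Both groups were weak peaks of nearly the same signal. Both lists were derived from the same replicate and pooled lists, so signal, replicate signal and IDR score are given as descriptions. The median signal was 20.2 for optimal-only peaks (quartiles 17.3 and 24.4) and 20.2 for conservative-only peaks (quartiles 17.2 and 24.3), against 72.4 for shared peaks (quartiles 37.2 and 160.8). The deposited IDR score had a median of 708 in optimal-only, 696 in conservative-only and 1000 in shared peaks. Every peak of both lists was also a summit of the pooled list, which was made from both libraries. In that list, summits passed from belonging to neither thresholded list to being shared over a narrow range of signal. At a signal over 17 up to 19, 24.96% of the pooled summits were optimal-only, 19.02% conservative-only, 12.2% shared and 43.8% in neither list. At a signal over 24 up to 28, the shares were 20.5%, 16.6%, 55.8% and 7.12%. Above 60, 24032 of 24050 summits were shared, 6 were optimal-only and 5 conservative-only.

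**Figure D1:**
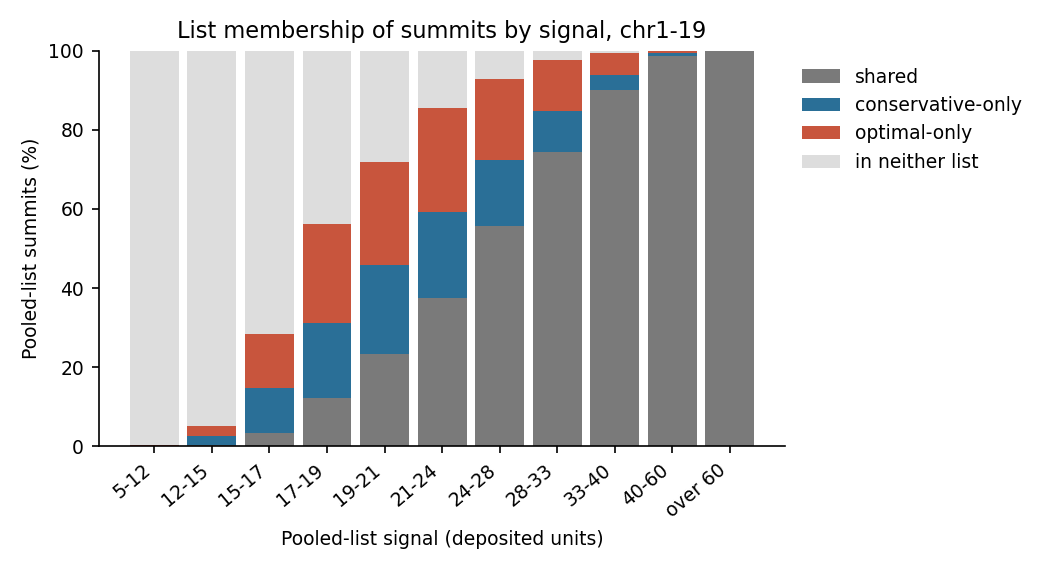
Share of pooled-list summits on the autosomes (y axis, percent) that were shared, conservative-only, optimal-only or in neither thresholded list, in bins of pooled-list signal (x axis, deposited units). Optimal-only and conservative-only peaks take 24.96% and 19.02% of the summits at 17 to 19, and 98.7% of the summits at 40 to 60 are shared.

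The groups differed in how evenly the 2 replicates carried the peak. This too is a description, since both lists were derived from the replicate lists. A replicate summit lay within 100 bp in both replicate lists at 5272 optimal-only and 4418 conservative-only peaks. At these peaks the higher replicate had a median signal of 13.4 and the lower one 6.89 in the optimal-only group, against 11.1 and 9.19 in the conservative-only group. The ratio of replicate 1 to replicate 2 was taken on the log2 scale after dividing each replicate by its median over shared peaks. Its absolute value had a median of 0.98 in optimal-only peaks, 0.22 in conservative-only peaks and 0.20 in shared peaks. It was over 1, a change of more than 2 times, at 2523 optimal-only peaks (47.9%), at 5 conservative-only peaks (0.113%) and at 403 shared peaks (0.953%). Neither replicate was favoured, as replicate 1 was the higher one at 50.8% of optimal-only and 50.02% of conservative-only peaks.

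Within a fixed signal range the membership followed the balance of the replicates. Among pooled summits with a signal over 17 up to 28 and an absolute log2 ratio below 0.25, 22 of 3993 were optimal-only (0.551%), 1604 conservative-only (40.2%) and 2315 shared (58.0%). Between 0.5 and 0.75, 27.2% were optimal-only and 12.4% conservative-only. From a ratio of 1 upward, none of the 2031 summits up to 1.5 and none of the 955 beyond was shared or conservative-only, and 1115 and 509 of them were optimal-only. The rest of those summits stood in neither list. In the same signal range, 5.76% of optimal-only peaks had a log2 ratio under 0.5 either way, against 87.8% of conservative-only and 80.9% of shared peaks.

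**Figure D2:**
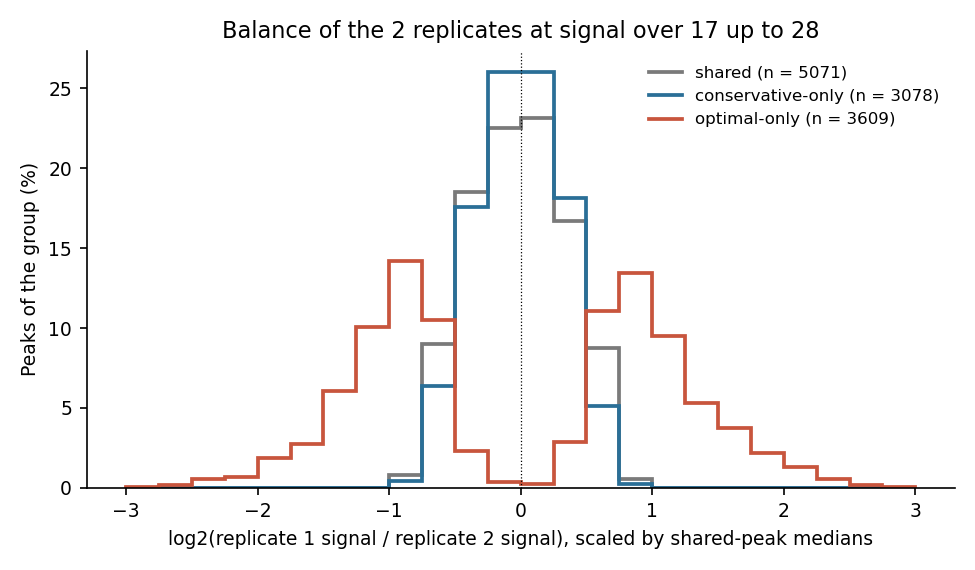
Distribution of the log2 ratio of replicate 1 to replicate 2 signal (x axis, scaled by each replicate's median over shared peaks) in percent of each group (y axis), for peaks with a signal over 17 up to 28 and a summit in both replicate lists. Optimal-only peaks form 2 humps either side of 0 and 5.76% of them lie within 0.5 of it, while 87.8% of conservative-only and 80.9% of shared peaks do.

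The strongest optimal-only peaks showed this at single sites. At the Mettl17 peak, with a pooled signal of 115.4, replicate 1 had 11.3 and replicate 2 had 60.5. Mettl17 encodes a mitochondrial methyltransferase. At the Dlgap5 peak, with a pooled signal of 112.3, the order was the reverse, 70.2 in replicate 1 and 11.5 in replicate 2. Dlgap5 encodes a mitotic spindle protein. The peak 30806 bp upstream of the sodium channel gene Scn8a (signal 101.1) had 65.2 in replicate 1 and no summit within 100 bp in replicate 2. The largest imbalance towards replicate 1 was at the promoter of Tfip11, a splicing factor gene, with 26.8 in replicate 1 and 2.86 in replicate 2, a scaled ratio of 8.91. The largest towards replicate 2 lay 46110 bp upstream of Plekhg6, with 5.70 and 47.8, a scaled ratio of 8.83. At the start site of Tars, the gene of a threonyl-tRNA synthetase, replicate 1 had 3.51 and replicate 2 had 24.6.

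Among conservative-only peaks with both replicate summits, 86.8% had an absolute log2 ratio under 0.5. The Bsn peak (signal 137.2) had 63.7 in replicate 1 and 74.4 in replicate 2. The peak 78333 bp downstream of the start of Eva1a had 25.6 and 27.3. The Pik3cg peak, the strongest of the group with 168.0, was an exception, with 87.7 in replicate 2 and no summit within 100 bp in replicate 1. The 3 least balanced conservative-only peaks towards replicate 2 included those at the promoters of Hdac1, a histone deacetylase gene, with 15.8 and 33.2, and of Klf6, a zinc finger transcription factor gene, with 11.9 and 24.1. Their scaled ratios were 2.21 and 2.14. Of the 10 strongest peaks of each group, the 8 optimal-only peaks with both replicate summits had scaled ratios of 3.14 to 5.79, and the 9 conservative-only peaks with both had ratios of 1.12 to 1.91.

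**Figure D3:**
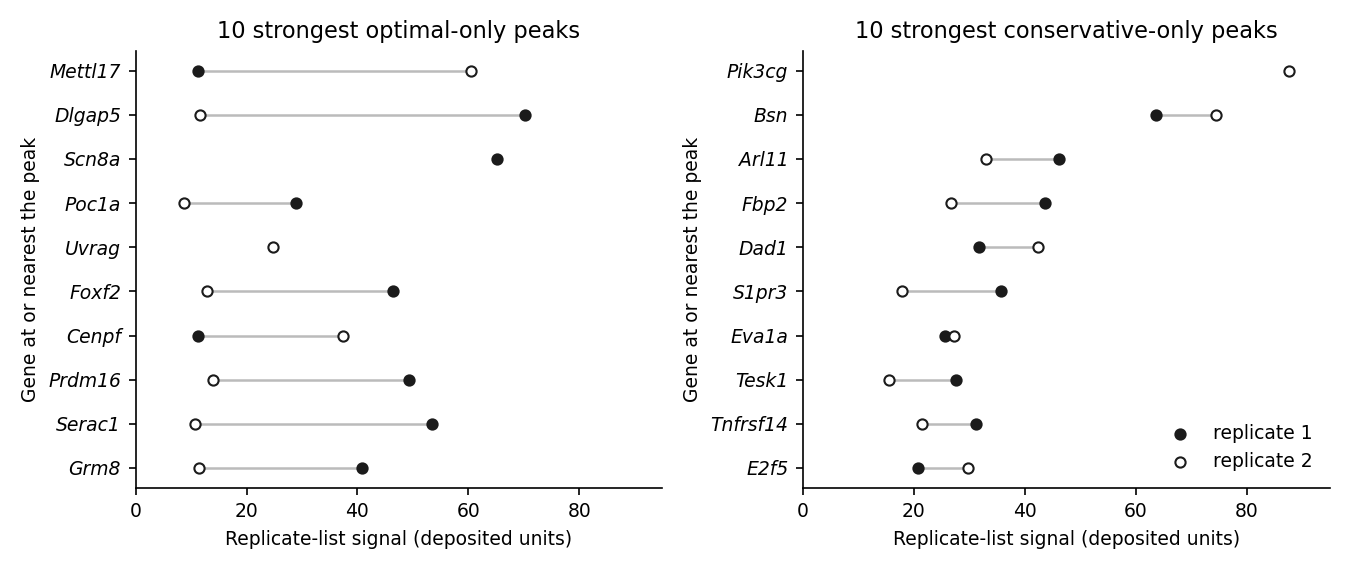
Signal in the replicate 1 list (filled points) and the replicate 2 list (open points) at the 10 strongest peaks of each group (x axis, deposited units), named by the gene at or nearest the peak. A single point means that the other replicate list had no summit within 100 bp, and the joined points lie far apart at Mettl17 (11.3 and 60.5) and close together at Eva1a (25.6 and 27.3).

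A replicate summit was missing in at least 1 replicate list at 810 optimal-only peaks (13.3%) and 557 conservative-only peaks (11.2%), against 430 shared peaks (1.01%). These peaks were at promoters more often than the rest of their group. The promoter share was 42.0% (exact 95% interval 38.5 to 45.5) among optimal-only peaks with a missing summit and 22.3% (21.2 to 23.4) among those with both summits. In the conservative-only group it was 44.7% (40.5 to 48.9) and 22.7% (21.4 to 23.9). The CTCF motif was found at 43.1% and 65.04% of these optimal-only peaks and at 35.5% and 64.0% of the conservative-only ones. Shared peaks with a missing summit likewise stood at promoters in 43.95% against 20.3% of those with both and had the motif in 42.6% against 85.3%. Peaks with a missing summit were also weaker. Median signals were 16.5 against 20.9 in optimal-only, 13.9 against 20.8 in conservative-only and 20.2 against 73.5 in shared peaks. The part of signal in these shares was not tested. Without the peaks that had a stronger summit within 500 bp, the promoter shares of the one-list groups were 39.4% against 21.5% and 42.6% against 22.2%. All intervals here cover counting error over peaks, which are not independent replicates.

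With signal matched over 5 bins, the promoter share of both groups was within 1 point of that of shared peaks. Its gap above summits in neither list was widest at the weakest signals. Promoter peaks were those whose summit was no more than 1 kb from a transcription start site (TSS) in the annotation, and the remaining summits were called exonic, then intronic, then intergenic. Promoters held 1515 of 6082 optimal-only peaks (24.9%, 23.8 to 26.0) and 1250 of 4975 conservative-only peaks (25.1%, 23.9 to 26.4). All shared peaks together were at promoters in 20.6%. For a comparison at like signal, shared peaks were weighted to the signal of each group over 5 bins. The promoter share of such shared peaks was 24.7%, and the difference was 0.26 percentage points for optimal-only peaks (95% Newcombe interval -1.52 to 2.01) and 0.45 for conservative-only peaks (-1.41 to 2.30), so both intervals held 0. Against summits in neither list, weighted over the same bins, the differences were 3.60 points (1.85 to 5.31) and 3.87 points (2.08 to 5.64). The weakest bin held 234452 and 235452 of those summits. At a signal of up to 12, promoters held 50.2% of optimal-only peaks, 46.2% of conservative-only peaks and 12.3% of summits in neither list. At over 19 up to 21 the shares were 22.7%, 22.0% and 24.5%, and at over 24 up to 28 they were 21.5%, 25.8% and 22.4%. In no bin from 17 to 28 was the optimal-only share above that of summits in neither list. In the range of signal over 17 up to 28 alone, chosen after seeing the data, the differences from shared peaks were 0.01 (-1.88 to 1.89) and 1.32 (-0.66 to 3.31). Pairing each peak with the shared peak nearest in signal gave 2.43 and 2.73 points, and binning by the signal of 1 replicate gave 1.58 to 2.42 and 2.52 to 2.61 points. In that binning, here and below, peaks without a summit in the replicate used were dropped. The largest gap in a single signal bin was at a signal over 33 up to 40, where 33.6% (27.5 to 40.2) of 223 optimal-only, 25.9% (18.99 to 33.7) of 147 conservative-only and 21.6% (20.2 to 23.0) of 3566 shared peaks were at promoters. That bin was singled out after its values were seen.

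The other classes differed by a few points at most. Introns held 40.2% of optimal-only and 38.8% of conservative-only peaks, and exons 5.57% and 5.11%. Intergenic summits made up 29.3% of optimal-only peaks against 32.8% of shared peaks of like signal, a difference of -3.55 points (-5.46 to -1.66). In conservative-only peaks they made up 31.0% against 33.1%, a difference of -2.11 points (-4.12 to -0.11). In the signal range over 17 up to 28 the 2 differences shrank to -2.06 (-4.17 to 0.05) and -1.15 (-3.36 to 1.06), and both intervals then held 0. The intron share of optimal-only peaks, 2.77 points above that of shared peaks of like signal (0.78 to 4.75), was 1.62 there (-0.61 to 3.85). It was 0.10 with pairing by nearest signal, 0.88 to 1.49 with binning by the signal of 1 replicate and -0.45 among members at or above their median signal.

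The CTCF motif was less common in both groups than in shared peaks as a whole, and its difference from shared peaks of like signal varied with the motif score and with how signal was matched. A hit within 50 bp of the summit, at a score that 5% of windows 1 kb away reached, was present at 3778 optimal-only peaks (62.1%, 60.9 to 63.3) and 3025 conservative-only peaks (60.8%, 59.4 to 62.2), against 84.9% of shared peaks. Against shared peaks of like signal the differences were -0.35 points (-2.33 to 1.63) and -1.93 points (-4.01 to 0.16). The match was coarse at the top, where the strongest bin reached from a signal of 25.7 to 115.4 and from 25.4 to 168.0 and held 23336 and 28611 shared peaks. In the signal range over 17 up to 28 the differences were 1.22 (-0.94 to 3.39) and 0.73 (-1.54 to 2.99), both turned in direction. The pairing by nearest signal gave -4.09 and -4.26 points, but the shared peaks so taken were stronger, with median signals of 23.7 and 22.7. With the peaks binned by the signal of 1 replicate in place of the pooled signal, the differences were -6.43 to -5.46 points in the optimal-only and -6.26 to -5.94 points in the conservative-only group. The motif share was higher from bin to bin in every group up to a signal of 33. At a signal over 15 up to 17 it was 56.0% in optimal-only, 52.5% in conservative-only and 56.6% in shared peaks. At a signal over 24 up to 28 it was 69.7%, 68.2% and 68.8%. At a signal over 40 up to 60 it was 73.3% (58.1 to 85.4), 65.1% (49.1 to 79.0) and 81.3% (80.4 to 82.2). The intervals of the 43 conservative-only and the shared peaks did not overlap there, while those of optimal-only and shared peaks did. This last range was singled out after its values were seen. Pooled summits in neither list had 57.5% in the first and 69.7% in the second of these 3 ranges. Weighted over the same 5 bins, summits in neither list had the motif in 56.2% and 55.99%, which put optimal-only peaks 5.89 points (3.85 to 7.92) and conservative-only peaks 4.81 points (2.72 to 6.91) higher. The weakest of those bins held 234452 and 235452 summits in neither list, whose median signal over all bins was 6.56. At a stricter score, reached by 1% of the flanking windows, the share was 34.0% in optimal-only and 34.1% in conservative-only peaks. The differences from shared peaks of like signal were then -2.63 points (-4.59 to -0.67) and -2.97 points (-5.03 to -0.92), and both intervals lay below 0.

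**Figure D4:**
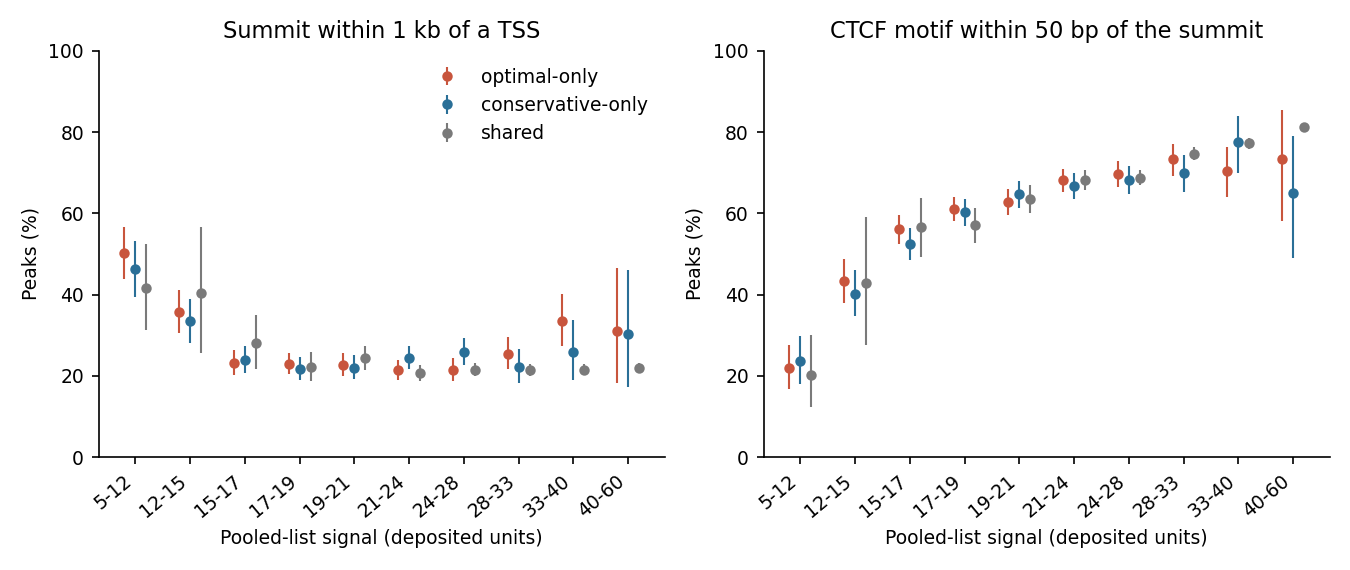
Share of peaks with a summit within 1 kb of a TSS (left, y axis in percent) and with a CTCF motif within 50 bp of the summit (right), by bin of pooled-list signal (x axis, deposited units), with exact 95% binomial intervals over peaks. The intervals of the 3 groups overlap in most bins but not for promoters at 33 to 40 (33.6% of optimal-only against 21.6% of shared peaks) or for the motif at 40 to 60 (65.1% of conservative-only against 81.3% of shared peaks), and the bin over 60, with 6 optimal-only and 5 conservative-only peaks, is not drawn.

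Where the motif was present, it lay farther from the summit than in shared peaks. The median distance of the hit's centre from the summit was 12 bp in optimal-only and 12 bp in conservative-only peaks, against 7 bp in shared peaks, which were not matched on signal here. The median motif score was 13.2 (13.1 to 13.4) in optimal-only and 13.3 (13.2 to 13.6) in conservative-only peaks with a hit, against 13.6 and 13.6 in shared peaks of like signal with a hit. The motif pointed along the forward strand at 50.8% (49.2 to 52.4) and 49.4% (47.6 to 51.2) of the hits. Members at promoters had the motif less often than the others, 43.9% against 68.2% in the optimal-only group and 41.2% against 67.4% in the conservative-only group. Shared peaks likewise had it in 71.2% at promoters against 88.4% elsewhere. The median GC content around the summit, within 100 bp either side, was 59.2% at promoter members of both groups and 48.3% at the others. In shared peaks it was 57.7% and 48.3%. Repeats, read from the soft-masked letters of the reference, held 25.2% of optimal-only and 25.5% of conservative-only summits, within 2 points of shared peaks of like signal (24.4% and 23.8%) and above the 16.3% of all shared peaks.

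Members lay nearer to a stronger peak than shared peaks as a whole did, and at about the median distance of shared peaks of like signal. A stronger summit lay within 10 kb at 51.7% of optimal-only, 51.4% of conservative-only and 31.6% of all shared peaks. Stronger summits were searched in the optimal list for optimal-only and for all shared peaks, and in the conservative list for conservative-only peaks. The median distance to the nearest one was 9253 bp (8823 to 9771) in optimal-only and 9466 bp (8972 to 9992) in conservative-only peaks. Shared peaks of like signal had 9474 and 9594 bp, and all shared peaks 23913 bp. A stronger summit lay within 1 kb at 673 optimal-only peaks (11.1%, 10.3 to 11.9) and 549 conservative-only peaks (11.0%, 10.2 to 11.9). The differences from shared peaks of like signal were -2.19 points (-3.55 to -0.85) and -2.50 points (-3.93 to -1.09). The weakest of the 5 bins behind them held only 275 and 262 shared peaks. At a signal of up to 12, 89.9% of the 89 shared peaks had a stronger summit within 1 kb, against 70.4% of optimal-only and 70.3% of conservative-only peaks. At a signal over 40 up to 60 the order was the reverse. A stronger summit lay within 1 kb there at 24.4% (12.9 to 39.5) of 45 optimal-only and 18.6% (8.39 to 33.4) of 43 conservative-only peaks. The 6681 shared peaks of that bin had one in 5.10% (4.59 to 5.66). That bin was singled out after its values were seen. In the signal range over 17 up to 28 the shares were 7.36% against 7.54% (difference -0.17, -1.37 to 1.02) and 7.88% against 7.38% (0.50, -0.75 to 1.77), which turned the direction in the conservative-only group. Pairing by nearest signal turned it in both groups, to 2.22 and 2.05 points, and so did binning by the signal of 1 replicate (2.49 to 2.62 and 1.65 to 1.75 points).

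Most of the weakest members lay beside a stronger peak, and they made up 165 of the 333 optimal-only and 143 of the 255 conservative-only peaks with a stronger summit within 500 bp. At a signal of up to 12, 165 of 247 optimal-only peaks (66.8%) and 143 of 212 conservative-only peaks (67.5%) had a stronger summit within 500 bp, and the median distance to a stronger summit over all peaks this weak was 214 and 210 bp. The 89 shared peaks this weak had one in 88.8%. Of these weakest members, 80.2% and 94.8% lacked a summit in at least 1 replicate list. Promoters held 50.2% (43.8 to 56.6) and 46.2% (39.4 to 53.2) of them, and the motif was found at 21.9% (16.9 to 27.5) and 23.6% (18.0 to 29.9). One example, an optimal-only peak in an intron of Creb1, the gene of a transcription factor that responds to cyclic AMP, lay 199 bp from a stronger summit and had a signal of 5.33, with 4.13 in replicate 1 and no summit in replicate 2. The conservative-only peak 70 bp upstream of the ubiquitin ligase gene Trim41 had a signal of 7.47, with 8.90 in replicate 1 and none in replicate 2.

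Across all members, the promoter share was lower far from a stronger summit than close to one. It was 49.5% of the 202 optimal-only peaks within 300 bp, 48.6% of the 471 between 300 bp and 1 kb, 22.3% between 3 and 10 kb and 10.5% of the 275 beyond 100 kb. In conservative-only peaks the same steps were 47.3%, 48.4%, 21.03% and 14.3%. The motif share went the other way, from 24.8% within 300 bp to 71.3% beyond 100 kb in optimal-only peaks and from 23.7% to 63.9% in conservative-only peaks. Shared peaks went the same ways between these ends, from 37.2% to 15.9% at promoters and from 35.9% to 92.6% with the motif. The members within 300 bp were also the weakest, with median signals of 8.004 and 7.65, and the part of signal in these shares was not tested. Within 500 bp, 34 optimal-only peaks (0.559%) had one of the 4975 conservative-only summits and 228 (3.75%) had one of the 42724 shared summits.

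**Figure D5:**
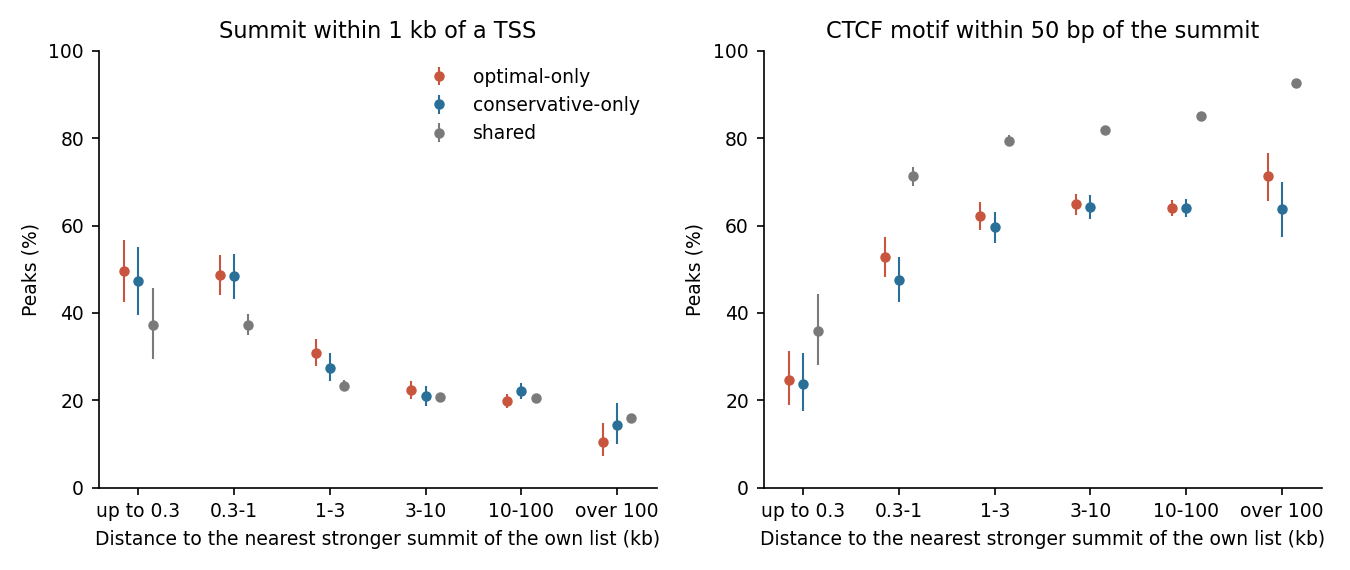
Share of peaks with a summit within 1 kb of a TSS (left, y axis in percent) and with a CTCF motif (right), by distance to the nearest stronger summit of the own list (x axis, kb), with exact 95% binomial intervals. Shared peaks were searched in the optimal list and are not matched on signal here. The promoter share of both one-list groups goes from 49.5% and 47.3% within 300 bp to 10.5% and 14.3% beyond 100 kb.

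At promoters, optimal-only peaks lay at 1325 protein-coding genes and conservative-only peaks at 1139, of 20780 such genes on the autosomes (6.38% and 5.48%). A shared promoter peak was also present at 514 of these 1325 and 421 of these 1139 genes, and absent at 811 (61.2%) and 718 (63.04%). Over all coding genes, 6356 of 20780 (30.6%) had a shared promoter peak, so it was absent there more often. Of these 1325 and 1139 genes, 110 had promoter peaks of both groups. Beside this, a conservative-only promoter peak was present at 5.48% of all coding genes and an optimal-only one at 6.38%. Whether the overlap differs from what these shares would give was not tested. The gene lists below were chosen with earlier results of these data known, and each is described by its counts beside these shares over all coding genes. Of 56 genes of limb patterning, 5 had an optimal-only and 5 a conservative-only promoter peak, 9 in all (16.1%, against 11.3% of all coding genes). Fgf9, a growth factor gene, had an optimal-only peak of signal 23.5, with 17.3 in replicate 1 and 9.14 in replicate 2. Bmpr1a, which encodes a receptor for bone morphogenetic proteins, had one of 26.1, with 15.9 and 8.38. The Fgf9 and Bmpr1a peaks lay inside their genes, 5060 and 1411 bp downstream of the first start site, each near another start site. In the conservative-only group the Gli1 peak had a signal of 32.4, with 12.1 and 21.1, and the peak at a start site of Prrx2, a homeobox gene of limb mesenchyme, had 28.8, with 13.2 and 16.1. The Ptch1 peak shown above had 13.6 in replicate 1 and 6.91 in replicate 2. Further listed genes were Twist1 in the optimal-only group and Bmp2 and Fgfr2 in the conservative-only group.

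Of 39 Hox genes, 4 (10.3%) had a conservative-only promoter peak, against 5.48% of all coding genes. They were Hoxa9, Hoxa11, Hoxc5 and Hoxc10. None had an optimal-only one, against 6.38% of all coding genes. Hox genes encode the transcription factors that pattern the limb along its axis. The Hoxa11 peak lay 830 bp upstream of the gene, and had 26.7 in the pooled list, 13.3 in replicate 1 and 11.97 in replicate 2. A single peak served Hoxc5 and Hoxc10, with 21.1 in the pooled list and 13.6 and 9.49 in the replicates. The Hoxa9 peak had 20.1, with 11.2 and 7.95. In each of the 3 peaks replicate 1 was higher than replicate 2, with scaled ratios of 1.05 to 1.36.

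Of 33 genes of cartilage and bone, 4 (12.1%) had an optimal-only promoter peak, against 6.38% of all coding genes. None had a conservative-only one, against 5.48%. Col2a1, the main collagen gene of cartilage, had 2 such optimal-only peaks. They lay inside the gene, 3320 and 4441 bp downstream of its first start site, each near another start site. The stronger had a signal of 34.9, with 10.9 in replicate 1 and 22.8 in replicate 2, and the weaker 21.4, with 6.96 and 13.2. Replicate 2 was thus the higher one at both Col2a1 peaks. At Col1a1, a collagen gene of bone, the peak lay 8326 bp downstream of the first start site, near another start site. It had 21.2, with 15.7 in replicate 1 and 7.85 in replicate 2. Col1a2 and Sox5 were the other 2. None of 35 skeletal muscle genes and none of 13 blood marker genes had a promoter member, against 11.3% of all coding genes. A shared promoter peak was present at 9 (25.7%) and 3 (23.1%) of them, against 30.6% of all coding genes. Of 11 neuronal markers, Rbfox3 alone (9.09%, against 6.38% of all coding genes) had an optimal-only peak (signal 19.9, with 5.76 and 12.5).

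Genes that most cells use were also among those with a promoter peak in one list. Of 76 cytosolic ribosomal protein genes, 6 had an optimal-only and 7 a conservative-only promoter peak. In all 12 had one (15.8%, against 11.3% of all coding genes). A shared promoter peak was present at 37 (48.7%), against 30.6% of all coding genes. Rpl3 had a conservative-only peak of 39.97, with 24.8 in replicate 1 and 15.4 in replicate 2. Rps9 had one of each kind, 1899 bp apart, the optimal-only one with 21.6 and 10.2 and the conservative-only one with 8.92 and 12.6. Of 20 genes of cohesin and the CTCF machinery, 3 had an optimal-only peak. The one at Ctcf itself, 265 bp downstream of a start site and also within 1 kb of a start site of its neighbour Agrp, had a signal of 28.8, with 23.6 in replicate 1 and 5.68 in replicate 2. The other 2 were Pds5a, a cohesin regulator gene, with 7.46 and 16.2, and Rec8, the gene of the meiotic cohesin subunit, with 11.3 in replicate 1 and no summit in replicate 2. Of 67 histone genes, 5 (7.46%) had an optimal-only promoter peak, near the 6.38% of all coding genes. A single peak served both Hist2h2ac and Hist2h2be, and another served both Hist1h2bb and Hist1h3c. None of the 67 had a conservative-only promoter peak, against 5.48% of all coding genes. Of 1127 olfactory receptor genes none had a member, against 11.3% of all coding genes. A shared promoter peak was present at 8 of them (0.710%), against 30.6% of all coding genes. In the clustered protocadherin genes, where CTCF binds the alternative promoters, 4 of 56 had an optimal-only and 3 a conservative-only promoter peak. These 7 genes (12.5%, against 11.3% of all coding genes) had no shared promoter peak, while 28 others had one. Of 388 genes with Zfp symbols, most of them zinc finger genes, 34 had an optimal-only and 28 a conservative-only peak. In all 58 had one (14.9%, against 11.3% of all coding genes).

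Set directly against each other, the 2 groups differed in 1 of 15 features of position and sequence, with signal balanced over 5 bins and intervals not adjusted for the number of features. Start sites of coding genes on both strands lay within 1 kb at 102 optimal-only peaks (1.68%) and 126 conservative-only peaks (2.53% of them at the signal of the first group), a difference of -0.855 points (-1.41 to -0.32). Shared peaks of like signal had 1.87% and 1.89%. For the other 14 features the interval of the difference held 0, among them the promoter share (-0.16 points, -1.79 to 1.46), the motif share (1.09, -0.74 to 2.91) and a stronger summit within 1 kb (0.15, -1.03 to 1.32). Of these intervals, the one reaching farthest from 0 was that of the intergenic share (-1.67, -3.40 to 0.05).

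Within the optimal-only group, the promoter share ranged from 19.8% to 24.96% over 5 classes of the log2 ratio, and the motif share was lowest where the replicates were balanced. Peaks with a log2 ratio of -1 or lower were at promoters in 22.2% (19.9 to 24.7), those between -1 and -0.5 in 21.2% (18.8 to 23.7), those between -0.5 and 0.5 in 23.4% (19.9 to 27.3), those between 0.5 and 1 in 19.8% (17.5 to 22.3) and those over 1 in 24.96% (22.6 to 27.4). The motif was found at 68.3% (65.6 to 70.9), 57.7% (53.3 to 61.9) and 65.4% (62.7 to 68.0) of the lowest, middle and highest of these classes. The middle one was weaker, with a median signal of 16.4 against 23.1 and 23.1. The intervals of the promoter share in the 2 classes over 0.5 did not overlap, while those in the 2 classes below -0.5 did. The pair over 0.5 was singled out after its values were seen, and its median signals were 20.5 and 23.1. Along the chromosomes, optimal-only peaks made up 10.9% (chromosome 1) to 13.9% (chromosome 13) of the autosomal optimal list, and conservative-only peaks 9.22% (chromosome 16) to 11.8% (chromosome 18) of the conservative list.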

How the data were processed

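CTCF peaks were taken from 5 deposited lists of mouse limb, 1 for each of 2 libraries, 1 pooled, and the optimal and conservative lists. Per the deposited notes, a replicate list came from that library's alignments and 1 further file, the pooled list from both libraries' alignments, and the optimal and conservative lists from both replicate lists and the pooled list, on mm10. The aligner, peak caller, thresholds and IDR settings used by the authors are not stated in these sources, so how they bear on membership was not tested. The authors' signal values have no stated normalization and are compared within a list, and replicate signals are set side by side after scaling by their median over shared peaks. The deposited IDR score only describes peaks, and the deposited −log10 q-value is capped and was not used.

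Summits were matched at 100 bp on chromosomes 1 to 19. Promoter, exon and intron came from GENCODE M21, and sequence and repeats from RefSeq GRCm38.p6. A motif matrix of 21 bases was built from the 1000 strongest shared peaks on odd-numbered autosomes, starting from the most over-represented word of 9 bases, in 10 rounds. The search covered both strands within 50 bp of the summit. A hit was a score reached by 5% of windows 1 kb away, or 1% for the stricter score. Shared peaks of like signal were weighted over 5 bins at the quintiles of each group. Shares have exact 95% binomial intervals, differences Newcombe intervals and medians order-statistic intervals. All cover counting error only and none was adjusted, since peaks are not replicates. The code was tested on simulated data, where intervals of a difference of 0 missed it more often than the nominal level, so the difference intervals may be too narrow. Python 3.11.15, numpy 2.4.6, pandas 2.3.3, scipy 1.17.1 and matplotlib 3.10.9 were used.

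The members, bins and gene lists were chosen with earlier results of these data known. Named peaks were, in each group, the 10 strongest, the 5 strongest at coding promoters, up to 3 per gene list, the 3 nearest the matching limit, the 3 nearest a stronger peak and the 3 most unequal between replicates each way. The Ptch1 and B3gntl1 peaks were taken for their sequence. Alternatives covered the matching distance, the choice of shared peaks, the motif score, the lists searched and leaving out each replicate.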

Additional observations from a re-analysis of the deposited data

How the results depend on the processing

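Of 190 recomputed values over 18 results, 136 stayed close to the reported value, 42 moved and 12 changed direction. A change of direction was counted only for results whose interval did not hold 0. Values of other results that changed sign, such as the motif share, were counted as close or moved. The comparison with shared peaks of like signal was the choice that moved most. In what follows the first value is for optimal-only and the second for conservative-only peaks, and differences are in percentage points. Pairing each member with the shared peak nearest in signal gave promoter 2.43 and 2.73, intron 0.10 and -1.21, motif -4.09 and -4.26, a stronger peak within 1 kb 2.22 and 2.05, and repeats -0.28 in the conservative-only group. The paired shared peaks were stronger than the members, since weak shared peaks are few. All shared peaks gave promoter 4.33 and 4.54, intergenic -6.41 and -4.74, motif -22.8 and -24.1, repeats 8.88 and 9.19 and a stronger peak within 1 kb 6.74 and 6.71.

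Peaks were also binned by the signal of 1 replicate, and those without a summit in it were dropped. The groups still came from lists made from both replicates. This binning gave motif -6.43 to -5.46 and -6.26 to -5.94, and promoter 1.58 to 2.42 and 2.52 to 2.61. For a stronger peak within 1 kb it gave 2.49 to 2.62 and 1.65 to 1.75. In the conservative-only group it gave intron -0.52 to -0.36 and a median distance of 9995 to 10032.5 bp. Members at or above their median signal gave intron -0.45 and -0.86, a stronger peak within 1 kb 1.14 and 0.56, promoter 2.67 in the conservative-only group and median distances of 10097 and 10947.5 bp. The stricter motif score gave -2.63 in the optimal-only group. A signal over 17 up to 28, chosen after seeing the data, gave a stronger peak within 1 kb -0.17 and 0.50, motif 0.73 in the conservative-only group and distances of 10158 and 10163.5 bp. The median distance was 8748.5 and 8771 bp with both thresholded lists searched, 8218.5 and 8210 bp with the pooled list, and 14412 and 13662 bp for summits of at least 2 times the signal. Only 8 and 5 members lay at or above the median signal of their list. The cause of these shifts was not tested. No paired analysis was possible because the study has 1 group. Read depth is unknown, so no limit from depth can be given.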
